A study of Mus musculus with 6 samples.

Results

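The macrophage and myeloid identity genes are 36 genes whose transcripts are enriched in macrophages, monocytes and related leukocytes, out of 18822 genes with a value in the deposited files. They were taken from a named list that leaves out chemokine receptors, complement, Fc receptors and MHC class II genes, and the list was applied by matching Entrez gene IDs to mouse symbols. All 36 had a value in every library, and 34 of them passed the filter of a mean of at least 1 FPKM (fragments scaled by the length of the transcript and the mapped fragments of the library) and were tested. Cd163 and Gpnmb lay under the filter. The RNA came from isolated renal glomeruli, the capillary tufts where blood is filtered, and was sequenced in 3 libraries of PR3 knockout mice (PR3_KO) and 3 of wild-type mice (WT). All libraries were of the strain C57BL/6J and of animals labelled with diabetic kidney disease, so the groups differed in the genotype of PR3 (proteinase 3), which neutrophils store in their granules and whose gene is Prtn3. The labels do not give age, sex, the way diabetes was induced, how the knockout was made or whether libraries came from separate animals. The p-values therefore cover no more than the variation among these libraries, part of which may be technical.

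Macrophages form from embryonic precursors and from blood monocytes, and their survival in tissue depends on the receptor CSF1R, which binds the ligands CSF1 and interleukin-34. The transcription factor PU.1, encoded by Spi1, binds the enhancers and promoters of most myeloid genes, often together with IRF8. Mature macrophages carry pattern recognition and scavenger receptors, signal through adaptors with an immunoreceptor tyrosine-based activation motif (ITAM) and hold large lysosomes. In the kidney they lie mostly in the interstitium around tubules and vessels, and they gather in and around glomeruli in diabetic and inflammatory disease.

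The starting regions of some members are shown because many PU.1 binding sites hold the core GAGGAA. The selection does not follow the size of the difference between the genotypes. Capitals mark that core or its reverse complement TTCCTC. The sequences are from RefSeq (GRCm38.p6), given 5′ to 3′ on the strand of the gene. They cover up to 250 bases before the start site, cut where an annotated exon begins. Those of Lyz1 and Lyz2 were both cut to the shorter of their lengths, 201 bases each. Cd68 (minus strand, chr11:69666171-69666420), Plek (minus strand, chr11:17008719-17008968), Cd53 (minus strand, chr3:106790150-106790399), Clec7a (minus strand, chr6:129472780-129473029) and Trem2 (plus strand, chr17:48346151-48346400) hold the core. Mpeg1 (plus strand, chr19:12460520-12460769) and the neighbouring lysozyme genes Lyz1 (minus strand, chr10:117292918-117293118) and Lyz2 (minus strand, chr10:117282322-117282522) do not hold it in these windows. The shorter GGAA, or its reverse complement TTCC, stands in each of them, so a missing GAGGAA is not a missing PU.1 site.
Cd68: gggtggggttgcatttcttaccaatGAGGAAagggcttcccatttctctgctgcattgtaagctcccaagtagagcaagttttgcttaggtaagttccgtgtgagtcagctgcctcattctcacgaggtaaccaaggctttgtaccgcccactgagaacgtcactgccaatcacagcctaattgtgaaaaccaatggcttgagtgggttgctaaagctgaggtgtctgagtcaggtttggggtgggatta
Plek: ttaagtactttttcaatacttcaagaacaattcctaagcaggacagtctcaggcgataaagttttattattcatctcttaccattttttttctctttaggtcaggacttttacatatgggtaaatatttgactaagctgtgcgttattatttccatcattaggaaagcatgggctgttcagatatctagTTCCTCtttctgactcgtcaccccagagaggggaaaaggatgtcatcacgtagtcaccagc
Cd53: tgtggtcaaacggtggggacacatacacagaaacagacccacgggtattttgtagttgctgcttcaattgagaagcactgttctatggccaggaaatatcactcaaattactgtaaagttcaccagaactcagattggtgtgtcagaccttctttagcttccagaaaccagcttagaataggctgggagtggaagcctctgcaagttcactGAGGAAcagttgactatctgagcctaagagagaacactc
Clec7a: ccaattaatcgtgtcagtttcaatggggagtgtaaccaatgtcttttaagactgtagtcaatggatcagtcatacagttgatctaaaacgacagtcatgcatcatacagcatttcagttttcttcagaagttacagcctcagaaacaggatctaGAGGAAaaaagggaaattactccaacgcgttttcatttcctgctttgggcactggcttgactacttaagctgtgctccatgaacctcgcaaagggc
Trem2: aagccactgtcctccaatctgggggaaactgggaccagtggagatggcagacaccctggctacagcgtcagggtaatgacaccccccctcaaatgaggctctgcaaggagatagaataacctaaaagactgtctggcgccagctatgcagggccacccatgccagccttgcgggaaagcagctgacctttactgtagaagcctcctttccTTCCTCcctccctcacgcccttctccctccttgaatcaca
Mpeg1: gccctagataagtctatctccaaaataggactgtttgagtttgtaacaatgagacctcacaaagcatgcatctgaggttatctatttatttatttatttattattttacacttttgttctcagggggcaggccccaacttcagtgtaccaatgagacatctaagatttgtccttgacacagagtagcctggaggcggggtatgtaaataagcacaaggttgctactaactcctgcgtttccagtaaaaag
Lyz1: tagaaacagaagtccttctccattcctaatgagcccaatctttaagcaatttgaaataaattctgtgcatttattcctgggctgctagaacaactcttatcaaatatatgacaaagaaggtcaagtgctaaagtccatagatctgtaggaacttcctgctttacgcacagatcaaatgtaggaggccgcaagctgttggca
Lyz2: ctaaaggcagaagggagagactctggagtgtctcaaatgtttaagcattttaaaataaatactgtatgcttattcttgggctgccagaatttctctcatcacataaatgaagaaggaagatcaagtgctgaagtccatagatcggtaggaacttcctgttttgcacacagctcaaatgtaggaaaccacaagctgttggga

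The core began 225 bases before the start site in Cd68, 96 bases before it in Clec7a, 61 in Plek, 40 in Trem2 and 39 in Cd53. RefSeq promoter windows were found for 27 of the 36 members, with 34 windows in all, of which 16 held a base of an annotated exon. On either strand of the 250 bases, GAGGAA stood in 14 of the 34 windows (41.2%), belonging to 12 members, against 23.3% of all 32851 windows in the table. The longer form GAGGAAGT, which contains that core, stood in 3 windows of Cd37 and Ly6c2 (8.82%, against 2.44% of all windows). Members of a list share function and some share ancestry, and a match is a description of letters, not a bound site. The Lyz1 and Lyz2 stretches shown above were identical in 156 of 211 alignment columns (73.9%).

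Prtn3, the targeted gene, was at 0.14, 0 and 0.07 FPKM in PR3_KO and at 0.46, 0.21 and 0.22 FPKM in WT (p = 0.1 by the exact permutation test), levels of very few fragments that check the labels weakly. Deposited FPKM summed to 566772 to 604697 in PR3_KO and 494316 to 543564 in WT, and 16473 to 16965 genes were above 0 per library. The files give no read totals. The lowest values of 33 olfactory receptor genes, taken as 1 fragment each, give about 15200000 fragments for 5 libraries and 13300000 for WT 1, a rough figure resting on 3 to 7 genes per library. Spearman correlations over genes were 0.986 to 0.988 within PR3_KO, 0.967 to 0.988 within WT, where WT 2 stood apart, and 0.882 to 0.961 between the genotypes. PR3_KO 3 stood apart from its group in neutrophil markers, whose 12 genes summed to 434.24 FPKM there, against 44.76 and 37.92 FPKM in PR3_KO 1 and 2.

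Macrophage and myeloid identity genes were lower in PR3_KO than in WT glomeruli. Of the 34 tested members 33 fell, 0 rose and 1, Ly6c2, did not pass the threshold of limma adjusted p = 0.05. Over all 12388 tested genes, 41.1% fell and 11.7% rose by the same rule, so that a call by itself was common. The size of the difference was less common. The members' median log2 fold change was -2.35 (PR3_KO minus WT, of FPKM + 1, a scale that understates the change of low genes), against -0.26 over all tested genes. A fall of at least 1 on the log2 scale was seen in 30 of 34 members and in 9.36% of all tested genes, and a fall of at least 2 in 24 members and in 1.03% of all tested genes. In 35 of the 36 members every PR3_KO library was below every WT library, and in 0 members above. Among all tested genes 49.1% were lower in this way and 16% higher. By size of the fall, Chil3 ranked 5 among the 12388 genes, Aif1 10, Clec12a 11, Mpeg1 13 and Lyz1 17, while Cd37, Irf8 and Cd14 ranked 1266, 1305 and 1353. In these bulk samples fewer macrophages in the tissue and less RNA of these genes per macrophage cannot be told apart.

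**Figure D1:**
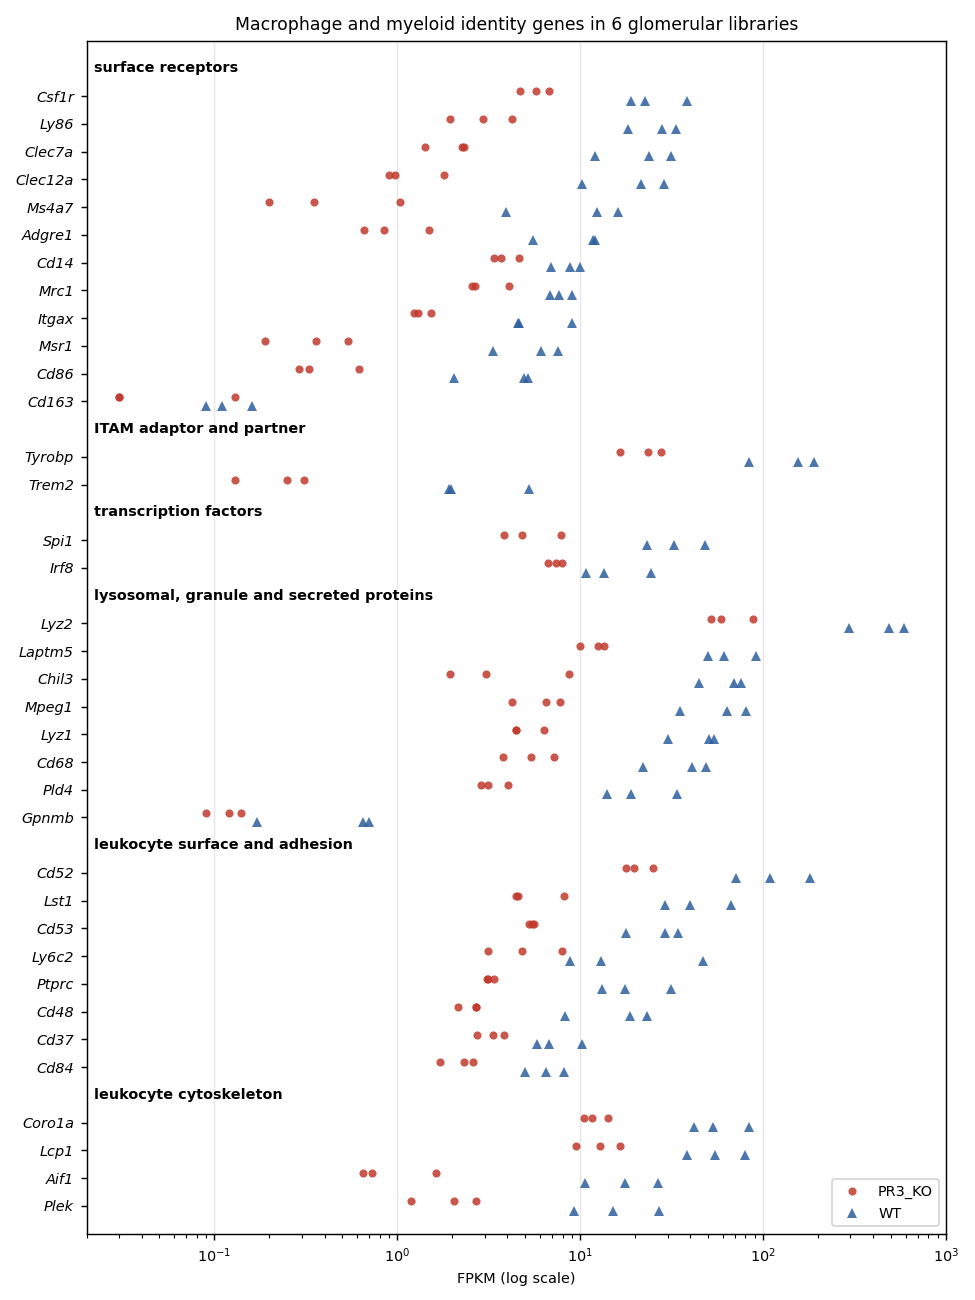
FPKM on a log axis for each of the 36 members, grouped by role, with 3 PR3_KO libraries as red circles and 3 WT libraries as blue triangles. The red circles lie left of the blue triangles without overlap for all members but Cd163, at levels from 0.03 FPKM (Cd163) to 585.72 FPKM (Lyz2).

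In the plot of FPKM by library Lyz2, Tyrobp and Cd52 are the most abundant members. Of the least abundant, Cd163 overlaps between the genotypes, and for Gpnmb the lowest WT library lies close to PR3_KO. Median-of-ratios scaling moved the median over all genes to 0.03, from which the members' median differed by -2.09, as with the deposited FPKM. Dividing a library by a factor shifts all its genes alike, apart from the added 1. This distance could therefore hardly change here or in the other scalings, and its sameness is no check of the result. With that scaling 33 members fell and 0 rose, against 22.2% and 25.6% of all genes. With library sums made equal 33 fell and 0 rose, against 51.1% and 7.2% of all genes. When libraries were instead scaled to 10 markers of the glomerular endothelium, a setting added after the data were seen, 27 of 34 members fell and 0 rose, against 1.71% and 85.5% of all genes. The members' median was then -1.01, with Cd14, Mrc1, Irf8 and Cd37 no longer lower, and that of all genes was 1.04, a distance of -2.04. Among these markers Sost had the largest fall, at -2.89, and the next was Egfl7 at -1.57. Values near 0 with this scaling, such as Mrc1 at 0.10, can depend on Sost, and the scaling was not run without it.

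Among the surface receptors, 11 of 11 tested genes fell, with a median of -2.24. Csf1r, the receptor for CSF1 and interleukin-34 on which macrophages depend, was at 6.71, 4.67 and 5.76 FPKM in PR3_KO and 18.92, 38.34 and 22.56 FPKM in WT, with values here and in what follows given in the order of library numbers. It fell by 1.99 on the log2 scale (SE 0.25, limma adjusted p = 0.00104), and the PR3_KO mean was 21.5% of the WT mean. The lowest WT library stood well above the highest PR3_KO library, and WT 2 was the highest of all. An antisense neighbour, Hmgxb3, shares 15.1% of the exonic bases of Csf1r, and the use of strand is not given in the sources used here. Adgre1, which encodes the classical mouse macrophage antigen F4/80 (chromosome 17, 57358581 to 57483529), was at 1.49, 0.66 and 0.85 FPKM in PR3_KO and at 5.51, 12.05 and 11.75 FPKM in WT. It averaged 1 ± 0.435 FPKM in PR3_KO and 9.77 ± 3.69 FPKM in WT (SD, n = 3 each), a fall of 2.38 (SE 0.29, limma adjusted p = 0.000963). Every PR3_KO library lay below every WT library, and WT 1 was the lowest of its group.

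The largest falls of the surface group were those of the C-type lectin receptors Clec12a and Clec7a. Clec12a, an inhibitory receptor of myeloid cells, was at 1.79, 0.97 and 0.90 FPKM in PR3_KO and at 10.23, 28.74 and 21.41 FPKM in WT, and it fell by 3.16 (SE 0.34, limma adjusted p = 0.000841). Clec7a, the beta-glucan receptor dectin-1 whose starting region is shown above, was at 2.26, 1.41 and 2.31 FPKM in PR3_KO and at 12, 31.39 and 23.66 FPKM in WT, and it fell by 2.88 (SE 0.32, limma adjusted p = 0.000861). For both genes WT 2 was the highest library and WT 1 the lowest of its group, yet WT 1 still stood several-fold above each PR3_KO library. Mrc1, the mannose receptor that is also a lectin of tissue macrophages and of some endothelial cells, had a smaller difference, at 2.56, 4.09 and 2.66 FPKM in PR3_KO and 6.87, 9.01 and 7.68 FPKM in WT. Its fall of 1.12 (SE 0.17, limma adjusted p = 0.00163) turned to 0.10 (limma adjusted p = 0.544) with scaling to endothelial markers.

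The scavenger receptor and toll-like receptor accessory genes differed in size. Msr1, the class A scavenger receptor that takes up modified lipoproteins, was at 0.54, 0.19 and 0.36 FPKM in PR3_KO and at 3.34, 7.60 and 6.09 FPKM in WT (log2 fold change -2.24, SE 0.25, limma adjusted p = 0.000831). All 3 PR3_KO libraries were under 1 FPKM, and the WT libraries were all above it. Ly86, whose product MD-1 sits with the toll-like receptor homologue RP105 at the cell surface, was at 4.26, 2.94 and 1.94 FPKM in PR3_KO and 18.15, 33.30 and 28.07 FPKM in WT, a fall of 2.76 (SE 0.26, limma adjusted p = 0.00074). Cd14, the co-receptor for bacterial lipopolysaccharide, had the smallest fall of the tested members. It was at 3.69, 3.38 and 4.65 FPKM in PR3_KO and 6.90, 9.91 and 8.74 FPKM in WT, a fall of 0.95 (SE 0.15, limma adjusted p = 0.00223) that turned to 0.31 (limma adjusted p = 0.113) with scaling to endothelial markers. Its groups lay close together but did not overlap.

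Itgax, which encodes the integrin CD11c of dendritic cells and some macrophages, averaged 1.35 ± 0.153 FPKM in PR3_KO and 6.08 ± 2.58 FPKM in WT and fell by 1.54 (limma adjusted p = 0.00166). Cd86, a costimulatory ligand for T cells, averaged 0.413 ± 0.180 FPKM in PR3_KO and 4.06 ± 1.74 FPKM in WT and fell by 1.78 (limma adjusted p = 0.00184). Ms4a7, a membrane protein gene of the MS4A family found in macrophages, was at 1.04, 0.20 and 0.35 FPKM in PR3_KO and at 3.95, 12.31 and 16.11 FPKM in WT. It fell by 2.80 (SE 0.45, limma adjusted p = 0.0027), and it did not pass without PR3_KO 3 and WT 2 together (-2.56, limma adjusted p = 0.133). Cd163, the haemoglobin scavenger receptor of some resident macrophages, was the one member whose groups overlapped. It was at 0.13, 0.03 and 0.03 FPKM in PR3_KO and at 0.09, 0.11 and 0.16 FPKM in WT (exact two-sided permutation p = 0.3), a level too low to show a difference.

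The ITAM adaptor Tyrobp and its partner Trem2 both fell. Tyrobp, also called DAP12 (chromosome 7, 30413782 to 30417582), carries the signal of many myeloid receptors that have no signalling tail of their own. It was at 23.61, 16.47 and 27.77 FPKM in PR3_KO and at 83.95, 190.27 and 155 FPKM in WT, a fall of 2.56 (SE 0.31, limma adjusted p = 0.00106). The WT libraries differed among themselves more than the PR3_KO libraries did, and the groups were far apart. Trem2, a receptor for lipids and apoptotic cells that signals through Tyrobp, was at 0.31, 0.13 and 0.25 FPKM in PR3_KO and at 1.96, 1.92 and 5.23 FPKM in WT, and it fell by 1.62 (SE 0.29, limma adjusted p = 0.0031). Here WT 3 was the high library, unlike most members, and without it the mean of Trem2 was under the filter. Trem2 stood at 7.57% of the WT mean in PR3_KO, so the log2 scale with 1 added gives a smaller value for it than the FPKM do, and with 0.1 added it was -3.13 (limma adjusted p = 0.00127).

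Both transcription factors fell, by unequal amounts. Spi1, encoding the myeloid master regulator PU.1 (chromosome 2, 91082374 to 91115759), was at 4.79, 3.81 and 7.84 FPKM in PR3_KO and at 23.21, 48.04 and 32.55 FPKM in WT. It fell by 2.45 (SE 0.30, limma adjusted p = 0.00106), with no overlap, and PR3_KO 3 was the highest of its group. Irf8, a factor of monocytes, dendritic cells and macrophages that also acts in B cells (chromosome 8, 120736358 to 120756694), was at 7.41, 6.69 and 7.94 FPKM in PR3_KO and at 10.77, 24.40 and 13.47 FPKM in WT. It fell by 0.97 (SE 0.26, limma adjusted p = 0.0157), but it did not pass without PR3_KO 1 (-0.97, limma adjusted p = 0.0548) or without PR3_KO 2 (-0.91, limma adjusted p = 0.0528), and it turned to 0.39 (limma adjusted p = 0.121) with scaling to endothelial markers. Its PR3_KO libraries were tight, and WT 1 and WT 3 lay not far above them.

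Of the 8 lysosomal, granule and secreted protein genes, 7 were tested and 7 fell, with a median of -2.75, the lowest of the 6 role groups. Chil3, a chitinase-like protein secreted by macrophages and neutrophils (chromosome 3, 106147554 to 106167564), had the largest fall of all members. It was at 3.05, 1.94 and 8.72 FPKM in PR3_KO and at 44.62, 75.73 and 69.43 FPKM in WT, a fall of 3.69 (SE 0.44, limma adjusted p = 0.00127). PR3_KO 3 was 4.49 times as high as PR3_KO 2, the widest such ratio among the members. PR3_KO 3 is also the library with the high neutrophil markers, and the part of these cells in the Chil3 value was not tested. The longest coding transcript of Chil3 is 94.2% identical to that of Chil4, and 18.5% of its 50-base windows occur in Chil4, so its level is uncertain.

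The lysozyme genes lie side by side on chromosome 10, Lyz2 at 117277541 to 117282272 and Lyz1 at 117287795 to 117292868. Lyz2, the lysozyme of macrophages and neutrophils, was the most abundant member, at 58.47, 51.84 and 87.54 FPKM in PR3_KO and at 292.84, 585.72 and 489.08 FPKM in WT, and it fell by 2.75 (SE 0.29, limma adjusted p = 0.000814). Lyz1, best known from Paneth cells of the intestine, was at 4.45, 4.48 and 6.30 FPKM in PR3_KO and at 30.15, 53.78 and 50.82 FPKM in WT, and it fell by 2.89 (SE 0.23, limma adjusted p = 0.000598). The libraries stood in nearly the same order for both genes. Their longest coding transcripts are 92.0% identical, and 16.1% of the 50-base windows of Lyz1 occur in Lyz2, so reads can be shared and the Lyz1 level is uncertain.

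Mpeg1, which encodes a pore-forming protein that macrophages use against engulfed bacteria, was at 7.78, 4.25 and 6.5 FPKM in PR3_KO and at 35.24, 80.74 and 63.25 FPKM in WT, a fall of 3.03 (SE 0.31, limma adjusted p = 0.000825). Cd68, the lysosomal glycoprotein used to stain macrophages (chromosome 11, 69664213 to 69666170), was at 7.16, 3.78 and 5.39 FPKM in PR3_KO and at 21.93, 48.54 and 40.75 FPKM in WT, a fall of 2.52 (SE 0.31, limma adjusted p = 0.00105). In both genes PR3_KO 2 was the lowest library and WT 2 the highest, and the groups did not overlap. Laptm5, a lysosomal membrane protein of blood cells, averaged 11.99 ± 1.82 FPKM in PR3_KO and 67.2 ± 21.2 FPKM in WT and fell by 2.36 (limma adjusted p = 0.000698). Pld4, a lysosomal nuclease that degrades DNA and RNA ends, averaged 3.34 ± 0.604 FPKM in PR3_KO and 22.2 ± 10.2 FPKM in WT and fell by 2.34 (limma adjusted p = 0.000992). Gpnmb, a glycoprotein of lysosomes that lipid-laden macrophages make, was at 0.14, 0.09 and 0.12 FPKM in PR3_KO and at 0.17, 0.70 and 0.65 FPKM in WT (exact two-sided permutation test, p = 0.1, which is the lower limit with 3 libraries per genotype). Its groups did not overlap, but WT 1 lay next to the PR3_KO libraries.

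**Figure D2:**
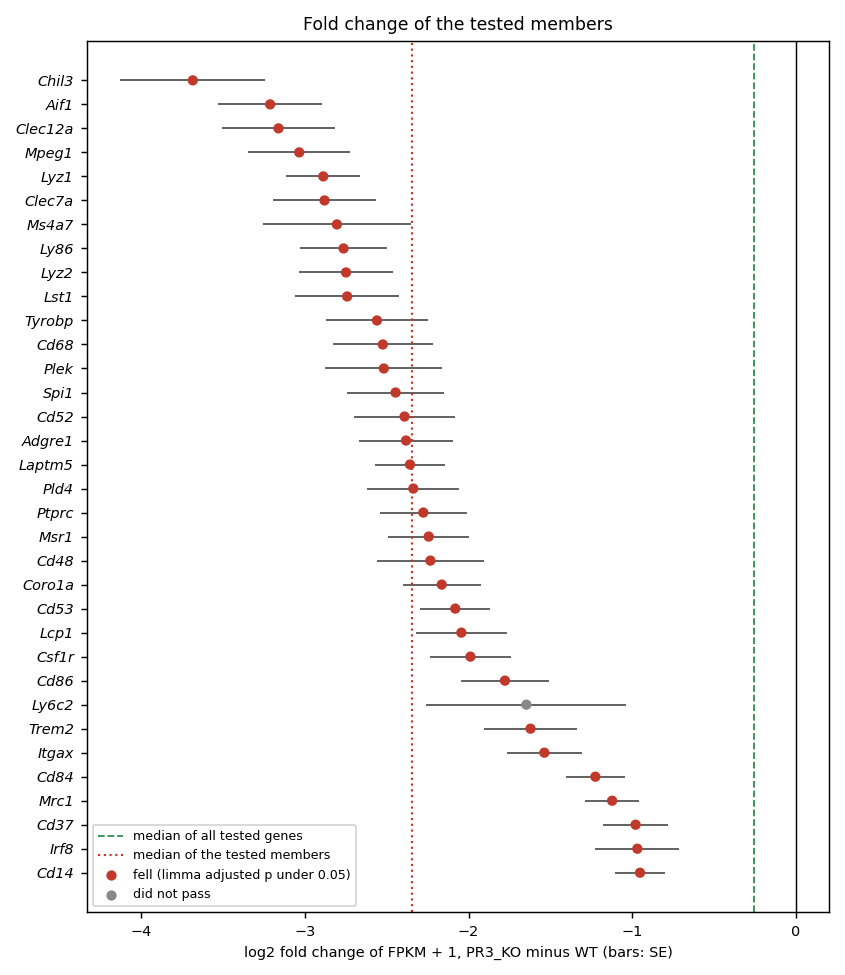
Log2 fold change of FPKM + 1, PR3_KO minus WT, for the 34 tested members in order of size, with bars of 1 limma SE and the medians of the members (dotted, -2.35) and of all tested genes (dashed, -0.26). The 33 red points passed and all lie left of the dashed line, from -3.69 (Chil3) to -0.95 (Cd14), and the grey point is Ly6c2.

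The plot of fold changes in order of size shows a run of values with no clear break between -3.21 (Aif1) and -1.54 (Itgax), then a group of 5 genes from -1.22 (Cd84) to -0.95 (Cd14). Of these 5, Cd84, Mrc1, Cd37, Irf8 and Cd14, named after their values were seen, 4 turned to the other side and Cd84 stood at -0.07 with scaling to endothelial markers. That scaling moved the members' median from -2.35 to -1.01 and the median of all genes from -0.26 to 1.04. The members with the smallest falls are thus the first to reach 0, and the turn adds nothing to how they were picked.

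Of the 8 leukocyte surface and adhesion genes, 7 fell, with a median of -2.16. Ptprc, which encodes the common leukocyte antigen CD45 (chromosome 1, 138062859 to 138175756), was at 3.37, 3.11 and 3.12 FPKM in PR3_KO and at 13.12, 31.18 and 17.52 FPKM in WT, a fall of 2.28 (SE 0.27, limma adjusted p = 0.000935). The PR3_KO libraries were nearly alike, and WT 2 stood apart from the other WT libraries. Since CD45 marks all leukocytes, its level at 15.5% of the WT mean in PR3_KO covers lymphocytes and neutrophils as well as macrophages. The tetraspanin Cd53, present on most leukocytes, averaged 5.42 ± 0.150 FPKM in PR3_KO and 27.1 ± 8.48 FPKM in WT and fell by 2.08 (limma adjusted p = 0.000776), whereas the tetraspanin Cd37, best known from B cells, averaged 3.29 ± 0.561 FPKM in PR3_KO and 7.61 ± 2.37 FPKM in WT. Cd37 fell by 0.98 (limma adjusted p = 0.00525), and turned to 0.25 (limma adjusted p = 0.162) with scaling to endothelial markers. Cd53 had the smallest spread of any member within PR3_KO, with a ratio of 1.06 between its highest and lowest library.

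Cd48 and Cd84 encode adhesion receptors of the SLAM family. Cd48 was at 2.69, 2.14 and 2.69 FPKM in PR3_KO and 8.28, 23.26 and 18.73 FPKM in WT (log2 fold change -2.23, limma adjusted p = 0.00171), and Cd84 averaged 2.20 ± 0.440 FPKM in PR3_KO and 6.55 ± 1.59 FPKM in WT (log2 fold change -1.22, limma adjusted p = 0.0016). Lst1, a small leukocyte gene in the MHC region, was at 8.20, 4.47 and 4.58 FPKM in PR3_KO and 29.17, 66.86 and 40.06 FPKM in WT, a fall of 2.74 (SE 0.32, limma adjusted p = 0.000992). Cd52, a short surface peptide of lymphocytes, monocytes and macrophages, averaged 20.8 ± 3.70 FPKM in PR3_KO and 120.4 ± 55.4 FPKM in WT and fell by 2.39 (limma adjusted p = 0.00121). The antisense neighbour Crybg2 shares 14.5% of the exonic bases of Cd52, and smaller antisense overlaps, of 0.369% to 4.44%, touch Plek, Lcp1, Coro1a and Cd37. None of these genes overlapped between the genotypes.

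Ly6c2, a surface protein of inflammatory monocytes (chromosome 15, 75108161 to 75112066), was the tested member that did not pass. It was at 4.83, 3.12 and 7.90 FPKM in PR3_KO and at 8.78, 46.78 and 13.03 FPKM in WT (log2 fold change -1.65, SE 0.61, limma adjusted p = 0.0607). Its groups did not overlap, but WT 2 was 5.33 times as high as WT 1, the widest spread of any member within a genotype. Without WT 2 it was at -0.97 (limma adjusted p = 0.0545), without WT 1 at -2.11 (limma adjusted p = 0.0242), and without PR3_KO 3 and WT 2 at -1.26 (limma adjusted p = 0.00392). Ly6c2 is close to Ly6c1, a gene that endothelial cells also use. Their coding transcripts are 95.02% identical, and 32.6% of the 50-base windows of Ly6c2 occur in Ly6c1. Ly6c1 was at 452.92, 564.79 and 473.29 FPKM in PR3_KO and at 797.56, 1701.34 and 1303.91 FPKM in WT (log2 fold change -1.29, limma adjusted p = 0.0058). Summed, Ly6c1 and Ly6c2 fell by 1.30 (limma adjusted p = 0.00596), and reads from the shared stretches cannot be assigned to either gene.

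All 4 genes of the leukocyte cytoskeleton fell, with a median of -2.34. Aif1, the actin-bundling protein IBA1 used to stain macrophages and microglia (chromosome 17, 35170986 to 35176083), was at 1.63, 0.65 and 0.73 FPKM in PR3_KO and at 10.64, 26.74 and 17.53 FPKM in WT, a fall of 3.21 (SE 0.32, limma adjusted p = 0.000773). PR3_KO stood at 5.48% of the WT mean, with no overlap. Plek, the protein kinase C substrate pleckstrin of platelets and phagocytes, was at 2.68, 1.19 and 2.05 FPKM in PR3_KO and 9.28, 26.98 and 15.05 FPKM in WT, a fall of 2.52 (SE 0.36, limma adjusted p = 0.00161). Coro1a, which encodes coronin 1A of leukocyte actin, averaged 12.1 ± 1.94 FPKM in PR3_KO and 59.6 ± 21.7 FPKM in WT and fell by 2.16 (limma adjusted p = 0.000838). Lcp1, the leukocyte actin-bundling protein L-plastin, averaged 12.9 ± 3.51 FPKM in PR3_KO and 57.4 ± 20.5 FPKM in WT and fell by 2.04 (limma adjusted p = 0.00132), and with scaling to endothelial markers it did not pass (-0.62, limma adjusted p = 0.0512).

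Over libraries the members moved together. Their summed FPKM was 236.49, 189.81 and 285.89 in PR3_KO 1, 2 and 3, against 960.86, 2047.76 and 1538.65 in WT 1, 2 and 3. Within WT, the second library was the highest for 32 of the 36 members, and WT 3 for the other 4, which were Cd163, Ms4a7, Trem2 and Cd84. WT 1 was the lowest of its group for 35 members. This order was not particular to the members. The summed markers of the glomerular endothelium, podocytes and mesangium were also highest in WT 2 and lowest in WT 1 among WT libraries. Other lists, such as the proximal tubule and the platelet and erythroid markers, had another order, with WT 1 the highest. Within PR3_KO, the second library was the lowest for 28 members. The ratio of the highest to the lowest library had a median of 1.69 over members in PR3_KO and 2.24 in WT. Even so, the lowest WT library stayed above the highest PR3_KO library in all members but Cd163. Without WT 2 the members' median was -2.04, and without WT 1 it was -2.62.

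**Figure D3:**
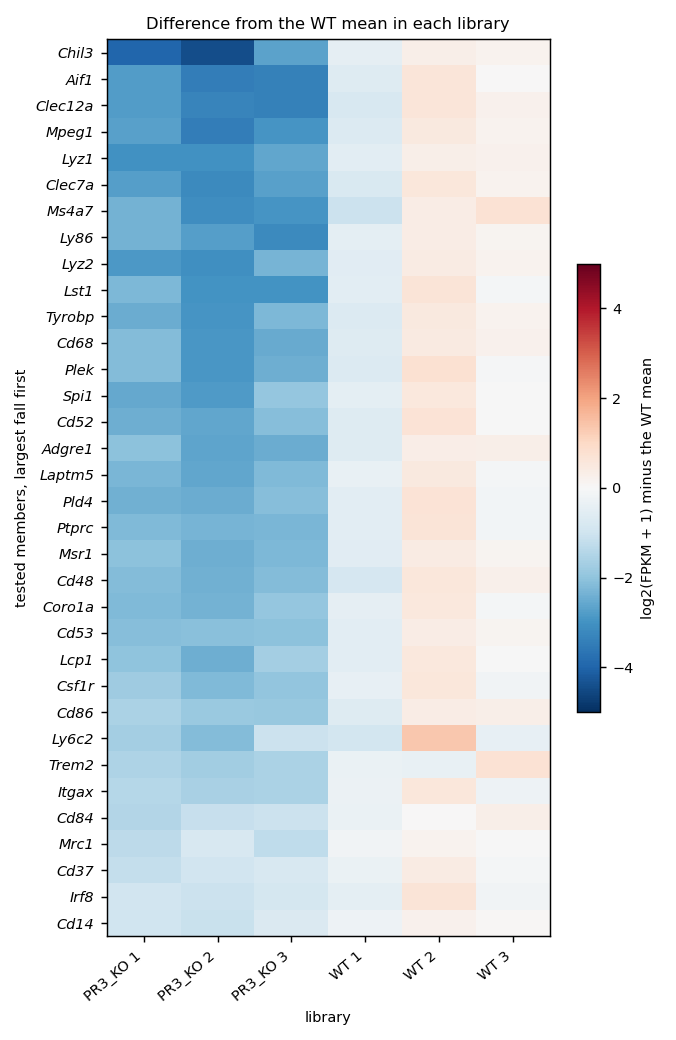
Colour gives log2(FPKM + 1) of each tested member in each library minus the mean of the 3 WT libraries, with PR3_KO libraries on the left, WT libraries on the right and members in order of the fall. All PR3_KO columns are blue for every member, and in WT most rows run from pale blue in WT 1 to pale red in WT 2.

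Set against the mean of the tested members in the same library, the genes did not keep a fixed distance on the log2 scale with 1 added, as the colour map of libraries shows. This is a description, since it uses the values already given. After that subtraction 8 members were higher in PR3_KO without overlap, 8 were lower without overlap and 18 overlapped. Part of this follows the level of a gene, since adding 1 understates the fall of low genes. Cd86 was higher by 0.47, yet its PR3_KO mean was 10.2% of the WT mean, against 15.5% for Ptprc. Cd14, Irf8, Cd37, Mrc1 and Cd84 were higher by 1.29, 1.28, 1.27, 1.12 and 1.02 on the log2 scale. Chil3, Aif1, Clec12a and Mpeg1 were lower by a difference of -1.44, -0.97, -0.92 and -0.79. For Msr1, Cd48, Ptprc, Coro1a and Pld4 the difference was between -0.09 and 0.08 on this scale. As a share of the WT mean these genes were less alike. The PR3_KO mean stood at 6.4% for Msr1, 15.0% for Cd48, 15.5% for Ptprc, 20.3% for Coro1a and 15.1% for Pld4.

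The growth factor side of the CSF1 receptor differed by ligand. Csf1, which is made by stromal, endothelial and epithelial cells, was at 19.71, 28.60 and 27.37 FPKM in PR3_KO and at 56.31, 71.95 and 44.62 FPKM in WT, and it fell by 1.15 (SE 0.20, limma adjusted p = 0.00291). Il34, the other ligand, which kidney tubule cells are known to make, was at 11.65, 18.07 and 15.91 FPKM in PR3_KO and at 7.71, 8.37 and 7.10 FPKM in WT, and it rose by 0.88 (SE 0.16, limma adjusted p = 0.00315). Both genes had groups without overlap, in opposite directions. Beside Il34, 9 of 10 tested markers of the proximal tubule rose, against 11.7% of all tested genes, and their part in the Il34 value was not tested. Csf2ra and Csf2rb, the subunits of the GM-CSF receptor, each had a log2 fold change of -1.37 (limma adjusted p = 0.00244 and 0.0106). Flt3l, the growth factor of dendritic cells, fell by 1.06 (limma adjusted p = 0.00375). Csf2rb2 was at 0.22, 0.15 and 0.44 FPKM in PR3_KO and 0.71, 2.07 and 1.19 FPKM in WT, and Flt3 at 0.25, 0.35 and 0.32 FPKM in PR3_KO and 0.13, 0.36 and 0.39 FPKM in WT, both under the filter. Csf2 was listed at 0 in every library, and Csf3 in all but WT 3.

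**Figure D4:**
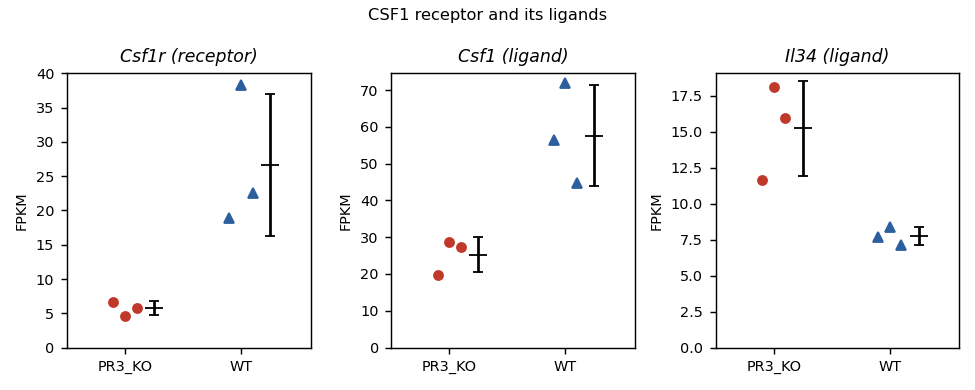
FPKM of the receptor gene Csf1r and its ligand genes Csf1 and Il34 in 3 PR3_KO libraries (red circles) and 3 WT libraries (blue triangles), with mean and SD as bars, each panel on its own axis from 0. Csf1r and Csf1 are lower in PR3_KO and Il34 is higher, without overlap in any panel.

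The panels of receptor and ligands show Csf1r at 5.71 ± 1.02 FPKM in PR3_KO and 26.6 ± 10.3 FPKM in WT, beside Csf1 at 25.2 ± 4.82 FPKM in PR3_KO and 57.6 ± 13.7 FPKM in WT and Il34 at 15.2 ± 3.27 FPKM in PR3_KO and 7.73 ± 0.635 FPKM in WT (SD, n = 3 each).

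Other genes of macrophage biology, 98 in 8 lists, were read from the same fit. Of 78 tested, 61 fell, 3 rose and 14 did not pass, with a median of -1.28. Over all tested genes 41.1% fell and 11.7% rose. In the list of other myeloid transcription factors 8 of 14 tested genes fell, with Fli1 at -1.45, Mef2c at -1.50, Klf4 at -1.50 and Id3 at -1.21 (limma adjusted p = 0.000684, 0.000825, 0.000861 and 0.00114), genes that endothelial or muscle cells also use. Cebpa, a factor of myeloid and of epithelial cells, rose by 0.57 (limma adjusted p = 0.00248).

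Among genes of ITAM and phagocyte signalling, 15 of 15 tested genes fell (41.1% of all tested genes did), with a median of -1.54. The list holds receptor genes, such as Clec4d, Clec4e and Pirb, as well as genes that act downstream of receptors. Among kinases, Lyn fell by 1.66 (limma adjusted p = 0.000735) and Syk by 1.54 (limma adjusted p = 0.000919). Inpp5d, a lipid phosphatase, fell by 1.57 (limma adjusted p = 0.000861), and Vav1, a signalling protein of blood cells, by 1.49 (limma adjusted p = 0.00105). Lyn was at 11.43, 11.26 and 12.94 FPKM in PR3_KO and at 31.97, 49.87 and 38.90 FPKM in WT, and it is also made by other blood cells. In the list of other leukocyte cytoskeleton genes 10 of 10 fell (41.1% of all tested genes did), with a median of -1.69. They include the Arf exchange factor gene Cyth4 at -2.01, the adaptor gene Fyb at -2.23, the cortactin-like gene Hcls1 at -2.14 and the cytohesin-binding gene Cytip at -1.45 (limma adjusted p = 0.000598, 0.000825, 0.000992 and 0.000995).

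Genes of macrophage states and of monocytes differed in their counts, which stand beside the 41.1% of all tested genes that fell (22.2% with median-of-ratios scaling). Of 12 monocyte genes 11 were tested and 9 fell, with a median of -1.57, among them Treml4 at -2.48, Ms4a6c at -2.84, Ms4a4c at -2.59 and the clotting factor gene F13a1 at -1.60 (limma adjusted p = 0.00109, 0.00111, 0.00171 and 0.00321). In the tissue-resident list 5 of 8 tested genes fell, with a median of -0.82, and with median-of-ratios scaling 3 of 7 did. The receptor kinase gene Axl fell by 1.07, the scavenger receptor gene Stab1 by 1.07, the prostaglandin synthase gene Hpgds by 0.98 and the transporter gene Slco2b1 by 0.66 (limma adjusted p = 0.00249, 0.0060, 0.00647 and 0.0096). In the lipid-associated list 7 of 12 fell and Abca1, a cholesterol exporter, rose by 0.52 (limma adjusted p = 0.0217). The number that fell was 4 with median-of-ratios scaling, without PR3_KO 1 or without PR3_KO 3, and 0 rose without PR3_KO 1, WT 1 or WT 3 in turn. Cd9, Abcg1, Fabp5 and Lgals3 fell by 1.06, 1.22, 0.74 and 1.31 (limma adjusted p = 0.000861, 0.00131, 0.00233 and 0.0035), and all are also expressed outside macrophages. Of 9 activation genes 3 were tested and 3 fell, Cd40 by 1.32, Nos2 by 1.33 and Il1b by 1.86 (limma adjusted p = 0.00131, 0.00257 and 0.0152), and Il1b did not pass with the replicate number as a block, without PR3_KO 1 or without PR3_KO 2 (limma adjusted p = 0.0982, 0.0668 and 0.0648).

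**Figure D5:**
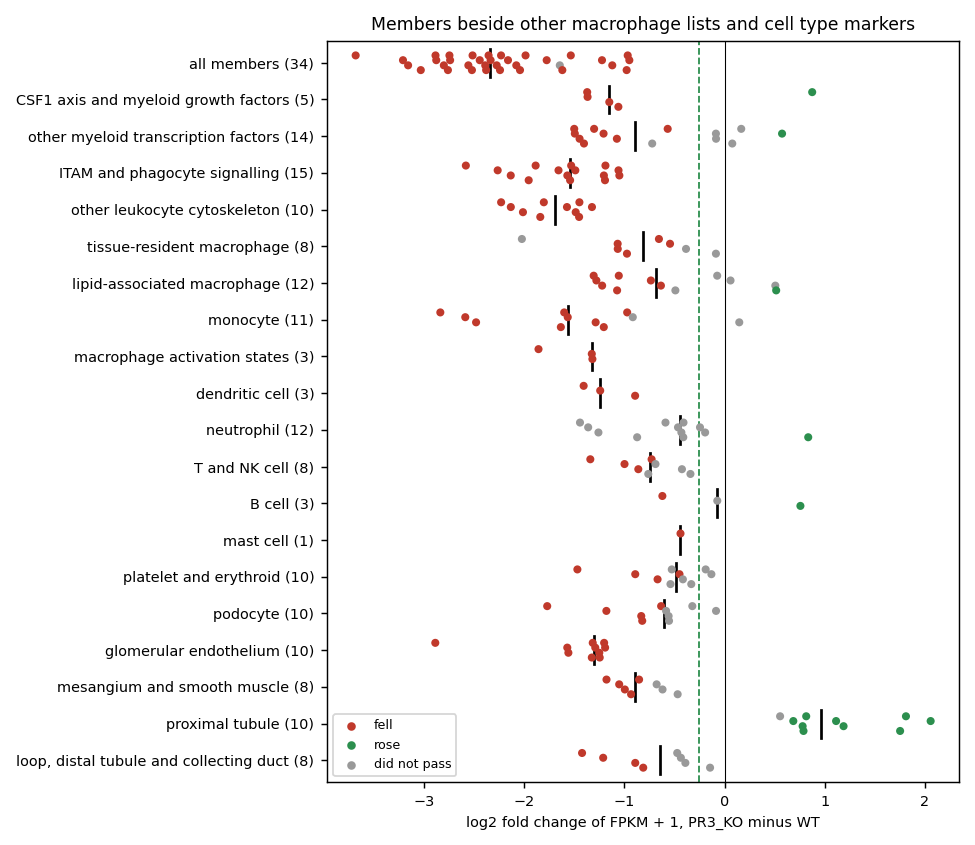
Each point is a tested gene, placed by its log2 fold change of FPKM + 1, PR3_KO minus WT, in the members (top), 8 other macrophage lists and 11 lists of cell type markers, with black bars at the list medians and a dashed line at the median of all genes (-0.26). The members have the lowest median, -2.35, that of the glomerular endothelium is -1.30, and the proximal tubule list lies on the positive side at 0.96.

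Markers of the endothelium and of the proximal tubule moved with the genotype too, as the plot of lists shows, and the part of other cells in the members' values was not tested. Of 10 glomerular endothelium markers 10 fell (median -1.30), with summed FPKM of 790.33 to 1107.02 in PR3_KO and 2208.49 to 2657.38 in WT. Of 10 proximal tubule markers 9 rose (median 0.96), with sums of 48928.7 to 65473.7 in PR3_KO and 7730.4 to 22830 in WT, and WT 2, the library with the highest member levels, had the lowest sum. Podocyte markers, which identify the labelled tissue, were above 0 in every library, and 5 of 10 fell (sums of 381.46 to 611.74 in PR3_KO and 699.43 to 1158.17 in WT). Their count was 2 with median-of-ratios scaling or without PR3_KO 1, 3 without PR3_KO 3, and 8 without WT 1 or with the replicate number as a block. Of 8 mesangium and smooth muscle markers 5 fell, and 3 with median-of-ratios scaling or without PR3_KO 3. Of 8 markers of the loop, distal tubule and collecting duct 4 fell, and 2 with median-of-ratios scaling, without PR3_KO 1 or without WT 2. Beside all lists of this paragraph stand the 41.1% of all tested genes that fell and the 11.7% that rose. With median-of-ratios scaling these shares were 22.2% and 25.6%.

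Among other blood cells, 0 of 12 neutrophil markers fell, or 2 with equal library sums, with sums of 37.92 to 434.24 in PR3_KO and 180.76 to 286.17 in WT. Ly6g rose by 0.84 (limma adjusted p = 0.0111) at low levels, 1.53, 1.18 and 2.58 FPKM in PR3_KO and 0.41, 0.76 and 0.4 FPKM in WT. Without PR3_KO 3, 10 of 10 tested neutrophil markers fell, beside 4155 of 12456 genes, and Ly6g was under the filter. Neutrophils share Lyz2, Chil3, Ptprc, Spi1, Coro1a and other members with macrophages, and without PR3_KO 3 the members' median was -2.39. Of 3 tested dendritic cell markers 3 fell (sums of 8.02 to 12.78 in PR3_KO and 24.36 to 32.63 in WT), and of 8 tested T and NK cell markers 4 fell (12.54 to 15.62 in PR3_KO and 19.84 to 61.11 in WT, WT 2 the highest). That T and NK cell count was 2 with median-of-ratios scaling, without PR3_KO 1 or without PR3_KO 3, and 7 without WT 1. The sums of B cell markers overlapped, at 12.9 to 16.42 in PR3_KO and 12.93 to 17.26 in WT, with 1 of 3 tested that fell, and 0 when PR3_KO 3 and WT 2 were both left out. Jchain, the joining chain of antibodies, rose, but it did not pass with equal library sums, with no filter, or when any one of PR3_KO 2, PR3_KO 3, WT 1 and WT 2 was left out. Of the mast cell markers only Kit was tested, at a log2 fold change of -0.44 (limma adjusted p = 0.0323). Kit did not pass with median-of-ratios scaling or when any single library other than PR3_KO 1 was left out, and Mcpt4 was at 0 in all 3 PR3_KO libraries. Of 10 platelet and erythroid markers 4 fell, with sums of 704.68 to 2803.99 in PR3_KO, PR3_KO 2 the highest, and 1416.2 to 1753.1 in WT. Without PR3_KO 2 the count was 9 of 10, beside 4464 of 12445 genes, and with median-of-ratios scaling it was 2 of 9. Beside the counts of these blood cell lists stands the 41.1% of all tested genes that fell, or 22.2% with median-of-ratios scaling. No marker of these lists was at 0 in all 6 libraries.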

How the data were processed

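Poly(A)-selected RNA of 6 libraries of mouse glomeruli, 3 PR3_KO and 3 WT, was sequenced on a DNBSEQ instrument, per the labels' protocols. Bowtie2 and the build GRCm38.p6 are named in the submitters' processing notes. The sources used here do not give the quantification tool, the annotation, the strand setting or the filters. The deposited values are FPKM, per the file headers, rounded by the authors to 2 decimals. FPKM is scaled by mapped fragments, so abundant transcripts of a library can lower the values of all other genes. Of 22064 Entrez IDs per file, 3242 were empty in all 6 files and 18822 had values. Of these, 18770 matched a symbol in the RefSeq gene table and 52 did not.

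The 12388 genes whose mean reached 1 FPKM were tested with limma 3.58.1 and statmod 1.5.0 in R 4.3.3 on log2(FPKM + 1), with genotype as the only term, an intensity trend and robust moderation. P-values are two-sided, with Benjamini-Hochberg adjustment over these genes and a threshold of 0.05. Of the genes under the filter, Cd163, Gpnmb and Prtn3 had an exact two-sided permutation test, and the others had no test. Groups came from the genotype labels. Alternatives were median-of-ratios scaling, equal library sums, pseudocount 0.1, no filter, a minimum mean of 5 FPKM, no trend with no robust moderation, the replicate number as a block, leaving out libraries, summed paralogs and, added after the data were seen, scaling to endothelial or podocyte markers.

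The members and all lists were chosen with earlier results of these data known. All 36 members are named. From each pathway list up to 4 tested genes with the smallest adjusted p are named, and every gene of the CSF1 axis. Other names were chosen after their values were seen. A gene in more than 1 list counts in each. Exon overlaps and transcript identities came from GENCODE, and promoter windows from RefSeq. Python 3.11.15 with pandas 2.3.3, numpy 2.4.6, scipy 1.17.1 and matplotlib 3.10.9 was used for tables and plots.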

Additional observations from a re-analysis of the deposited data

How the results depend on the processing

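Of 506 values of single members under the alternatives, 493 kept their direction and their side of the threshold, 5 lost the call, 4 gained it and 4 turned direction. The 4 that turned were Cd14 at 0.31, Mrc1 at 0.10, Irf8 at 0.39 and Cd37 at 0.25, all with scaling to endothelial markers, where none of them passed (limma adjusted p = 0.113, 0.544, 0.121 and 0.162). Members that fell numbered 33 with median-of-ratios scaling, equal library sums, pseudocount 0.1 or no filter, 28 of 29 at a minimum mean of 5 FPKM, 34 without both the trend and the robust moderation, 27 with endothelial scaling and 32 to 34 when single libraries were left out, where 0 rose in each fit. The members' median was -2.62 to -2.04 over single libraries left out, -1.01 with endothelial scaling and -1.68 with podocyte scaling, whose p-values are not given because the fit pooled the variance of all genes fully. Over all genes, 2744 fell and 3158 rose with median-of-ratios scaling, 894 rose with equal library sums, and 212 fell and 10610 rose with endothelial scaling. Leaving out single libraries gave 3873 to 4731 that fell and 916 to 1518 that rose, with 916 without PR3_KO 1 and 936 without PR3_KO 3. Of the other macrophage genes 7 rose with median-of-ratios scaling, and 57 to 65 fell and 2 to 3 rose over single libraries left out. Replicate numbers did not pair the samples (correlations of deviations 0.07, 0.27 and -0.09), and with the number as a block 33 members fell, while over all genes 5143 fell and 1550 rose. The causes of these shifts were not tested. Low levels, such as those of Cd163 and Prtn3, rest on very few fragments, and 3 libraries per genotype limit every test.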
